A study of Homo sapiens with 6 samples.

Results

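The mitotic kinases, spindle checkpoint genes and FOXM1 were followed in SKBR3, a HER2-positive line established from a human breast cancer, after silencing of NDRG1. The genes were chosen by name, as FOXM1, PLK1, PLK4, AURKA, AURKB, NEK2, TTK, BUB1, BUB1B and MAD2L1. Earlier results of these data were known when they and the other gene lists were chosen, so counts over them are descriptions. All 10 were measured, among 14812 genes in all. Cells expressing 1 NDRG1 shRNA (shNDRG1) gave 3 Affymetrix Gene ST arrays, and cells expressing a control shRNA gave 3 arrays. The methods describe the control as a vector, whereas the sample labels and the design text name GFP, so these cells are called shGFP control. Both were stably transduced populations grown in DMEM with serum, harvested in log phase, and titled as without DFO (the study uses this abbreviation for the iron chelator deferoxamine). The arrays are labelled with batches 1, 2 and 3, each holding 1 array per group. The nature of a batch is not given, and the titles place batches 2 and 3 on the same day. The replicates are described as independent biological ones.

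Entry into and exit from mitosis are driven by protein kinases whose transcripts accumulate late in the cell cycle. FOXM1 is a forkhead transcription factor that, with the B-MYB and MuvB complex, activates many of these genes. PLK1 and the Aurora kinases act in spindle assembly and chromosome segregation, PLK4 starts centriole duplication and NEK2 promotes centrosome separation. TTK (MPS1), BUB1, BUB1B (BUBR1) and MAD2L1 (MAD2) belong to the spindle checkpoint, which holds the anaphase-promoting complex (APC/C) inactive until every chromosome is attached. Because these transcripts are made by cycling cells, fewer cycling cells and less RNA per cycling cell cannot be told apart in bulk RNA.

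Late cell cycle promoters are known for a cell cycle genes homology region (CHR, TTTGAA) and for CCAAT boxes, and the promoters below are shown because PLK1, PLK4 and BUB1 lay below the control in every batch, whereas BUB1B did not. Each is the 250 bases before the gene's start in RefSeq (GRCh38.p14), written 5′ to 3′ on the gene's strand with TTTGAA and CCAAT matches, on either strand, in capitals. RefSeq windows at the annotated start were at hand for 6 of the 10 genes, PLK1, PLK4, BUB1, BUB1B, NEK2 and MAD2L1. FOXM1, TTK, AURKA and AURKB were not matched.
PLK1, chr16:23678639-23678888, plus strand: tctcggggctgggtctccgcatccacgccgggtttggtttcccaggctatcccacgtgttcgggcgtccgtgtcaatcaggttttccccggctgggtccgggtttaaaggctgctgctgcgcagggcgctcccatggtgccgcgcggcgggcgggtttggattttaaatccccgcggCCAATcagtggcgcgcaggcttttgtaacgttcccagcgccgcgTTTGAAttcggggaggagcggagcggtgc
PLK4, chr4:127880643-127880892, plus strand: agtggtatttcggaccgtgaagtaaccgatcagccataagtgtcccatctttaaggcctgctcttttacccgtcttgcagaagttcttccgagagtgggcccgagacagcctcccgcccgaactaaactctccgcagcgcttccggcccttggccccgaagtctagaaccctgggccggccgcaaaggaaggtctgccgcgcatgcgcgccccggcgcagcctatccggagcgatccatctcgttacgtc
BUB1, chr2:110678064-110678313, minus strand: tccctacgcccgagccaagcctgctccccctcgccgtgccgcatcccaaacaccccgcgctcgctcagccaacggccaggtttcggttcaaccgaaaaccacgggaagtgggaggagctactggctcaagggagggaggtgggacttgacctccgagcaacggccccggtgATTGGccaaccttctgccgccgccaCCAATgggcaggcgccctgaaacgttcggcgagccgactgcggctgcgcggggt
BUB1B, chr15:40160819-40161068, plus strand: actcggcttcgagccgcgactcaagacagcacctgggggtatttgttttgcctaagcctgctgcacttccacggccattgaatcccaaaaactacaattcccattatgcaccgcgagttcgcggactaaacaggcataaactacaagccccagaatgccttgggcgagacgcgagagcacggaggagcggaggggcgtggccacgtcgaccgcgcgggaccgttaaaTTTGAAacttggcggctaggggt
TTTGAA was found in 2 of the 6 windows, beginning at -29 from the start in PLK1 and at -23 in BUB1B, against 13.3% of 35116 windows of this length. Unlike the 6, the 35116 windows were not restricted to the annotated start of a gene. CCAAT was found in 4 of the 6, against 32% of all windows. PLK1 held 1, at -73, and BUB1 held 2, in opposite orientations, the nearer at -54. NEK2 held 2, the nearer at -34, and MAD2L1 held 1, at -229, and neither gene was below the control in every batch. The E2F-type motif TTTNNCGC was found in 0 of the 6 and in 5.92% of all windows. No match of one motif overlapped that of another. PLK4 had none of the 3 motifs. A match is a description of letters and not of a bound site.

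The deposited values are relative to a baseline of each probe, so they compare arrays for 1 gene and give no level to rank genes by. They are read as log2, although the base is not stated. On the first principal component over all genes, which held 72.0% of the variance, batch 2 was separate from the rest, at -0.44 for shNDRG1 and -0.63 for the control, against 0.34 to 0.41 for both arrays of batch 1 and the control of batch 3. The shNDRG1 array of batch 3 lay between them, at -0.022. NDRG1 itself was -0.87 ± 0.20 in shNDRG1 cells and 0.14 ± 0.24 in control cells (SD, n = 3 each), so that it was 2.01-fold lower and the groups did not overlap (log2 difference -1.01, standard error 0.09). Its adjusted p from limma was 0.289 with arrays paired by batch. Of 10 genes listed for SKBR3 identity 7 were measured, with a median difference of -0.13 and 5 below 0. At an unadjusted p under 0.05 from limma, 1 was lower, GRB7, and 0 higher, against 3.74% and 5.7% of all genes. Without the pairing 2 were lower, against 1.57% of all genes. The list includes genes of hormone receptors, although the study gives SKBR3 as negative for the estrogen receptor. GRB7, an adaptor gene beside ERBB2, was -0.44 (standard error 0.05) and the epithelial adhesion gene EPCAM was -0.23 (standard error 0.09), whereas the hormone receptor genes ESR1 and PGR were 0.12 (standard error 0.08) and 0.0069 (standard error 0.05). Of 9 markers of other cell types 3 were measured, KRT5 at -0.10 (standard error 0.07), VIM at -0.0090 (standard error 0.06) and KRT14 at 0.03 (standard error 0.08). Without levels, the presence of a marker cannot be judged.

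All 10 mitotic genes had a mean difference below 0, in a range of -0.48 for BUB1 to -0.0084 for AURKA, with a median of -0.20. Over all 14812 genes the median was 0.0070, and 46.4% had a difference below 0. None of the 10 passed an adjusted p of 0.05 from limma with arrays paired by batch, and 0% of all genes did (0 without the pairing as well). At an unadjusted p under 0.05, 3 of the 10 were lower in shNDRG1 cells and 0 higher, against 3.74% of all genes lower and 5.7% higher. Without the pairing, where the spread between batches counts as error, 0 of the 10 were lower and 0 higher, against 1.57% and 2.69% of all genes. The 3 were FOXM1, PLK1 and PLK4. Without batch 1 the lower genes were FOXM1 and PLK4, 2 of the 10 against 1.96% of all genes. Without batch 2 they were FOXM1, PLK1, PLK4, BUB1 and BUB1B, 5 of the 10 against 3.9%. Without batch 3 they were FOXM1, PLK1 and AURKB, 3 of the 10 against 4.55%. FOXM1 was thus lower by this threshold with any 2 batches in the paired fit, and in 12 of the 19 alternative settings given at the end.

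FOXM1 had log2 values of -0.19, 0.26 and -0.22 in shNDRG1 cells of batches 1, 2 and 3, against 0.19, 0.79 and 0.22 in shGFP control cells. In each batch the shNDRG1 array was the lower, but the shNDRG1 value of batch 2 exceeded the control values of batches 1 and 3, so that the groups overlapped. The differences were -0.38, -0.54 and -0.44, a mean of -0.45 (standard error 0.06, 95% interval -0.60 to -0.30) or 1.37-fold lower. The unadjusted p was 0.000894 and the adjusted p 0.304 from limma, which ranked FOXM1 27 among lowered genes by p and 99 by size. Without the pairing the standard error was 0.21, and the unadjusted p was 0.0835.

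PLK1, the kinase of mitotic entry, spindle poles and cytokinesis, was -0.22, 0.34 and -0.07 in shNDRG1 cells, against 0.07, 0.60 and 0.11 in shGFP control cells. As for FOXM1, batch 2 was highest in both groups and the shNDRG1 array lay below its partner each time, with overlapping groups. The differences were -0.29, -0.26 and -0.19, a mean of -0.25 (standard error 0.05, 95% interval -0.38 to -0.11, adjusted p = 0.363 from limma).

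PLK4, the kinase that starts centriole duplication, was 0.23, -0.82 and -0.09 in shNDRG1 cells and 0.39, -0.62 and 0.28 in shGFP control cells. Batch 2 was here the lowest in both groups, opposite to FOXM1 and PLK1, and the groups overlapped widely. The differences were nevertheless -0.16, -0.19 and -0.38, with a mean of -0.24 (standard error 0.07, 95% interval -0.42 to -0.06, adjusted p = 0.428 from limma). The unadjusted p was 0.0184 with arrays paired and 0.549 without.

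**Figure D1:**
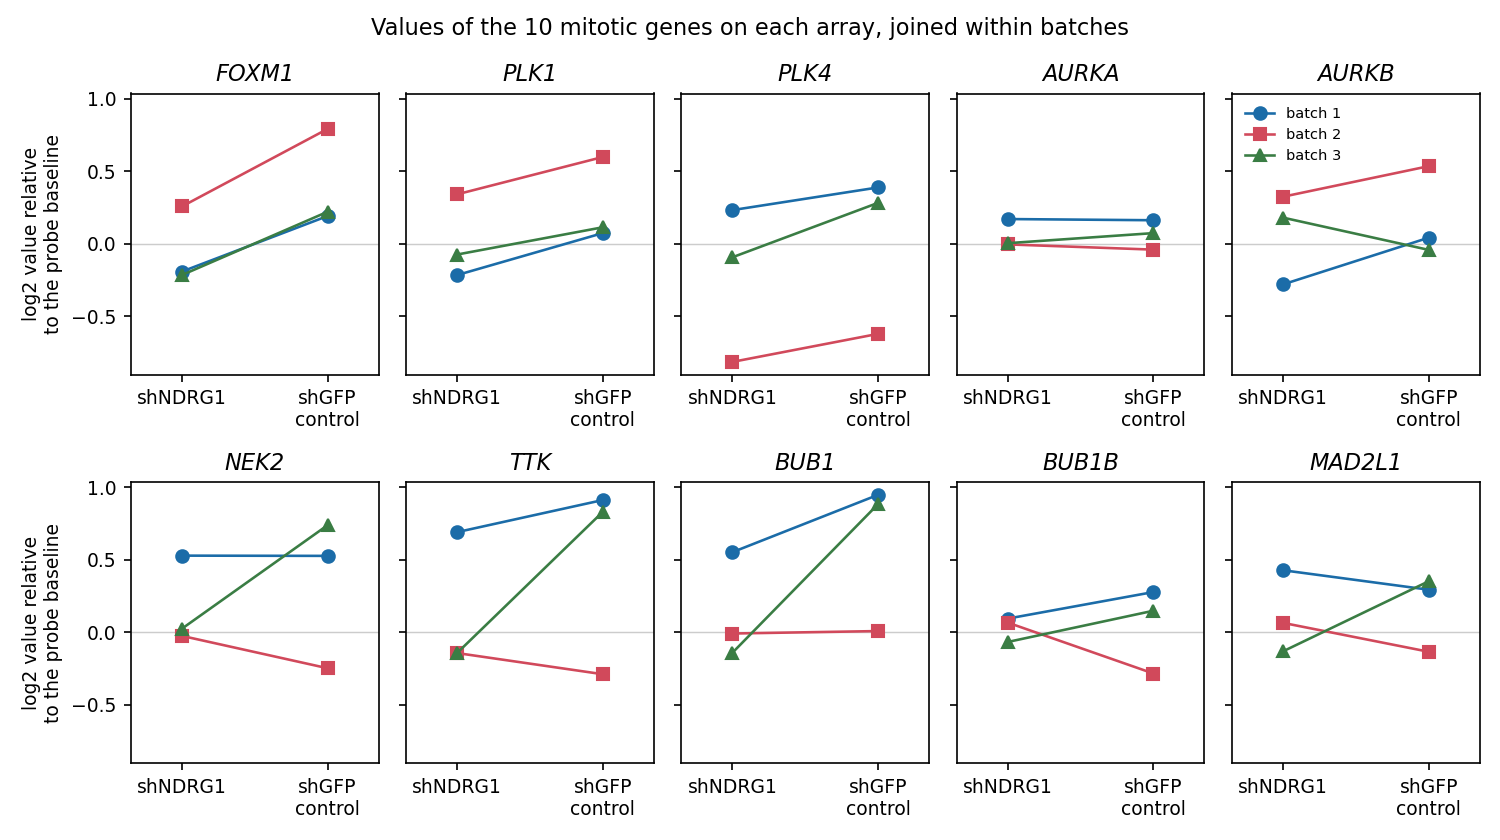
Log2 values relative to the probe baseline (y axis) of the 10 genes on each array, with shNDRG1 cells left and shGFP control cells right, joined within batches 1, 2 and 3. FOXM1, PLK1, PLK4 and BUB1 slope the same way in all 3 batches, although batch 2 stands apart in FOXM1, PLK1 and PLK4. The steepest line is that of batch 3 in PLK4, AURKA, NEK2, TTK, BUB1 and MAD2L1. In NEK2, TTK and BUB1 the shNDRG1 array of batch 3 lies near that of batch 2.

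AURKA, whose kinase acts at centrosomes and spindle poles, was 0.17, -0.0042 and 0.0042 in shNDRG1 cells, against 0.16, -0.04 and 0.07 in shGFP control cells. Its differences of 0.0082, 0.04 and -0.07 lay on both sides of 0 and averaged -0.0084 (standard error 0.05). Its 95% interval was -0.15 to 0.13. AURKB, the catalytic subunit of the chromosomal passenger complex, was -0.28, 0.33 and 0.18 in shNDRG1 cells and 0.04, 0.54 and -0.04 in shGFP control cells. It was below the control by -0.32 and -0.21 in batches 1 and 2 and above it by 0.22 in batch 3, with a mean of -0.10 (standard error 0.12, 95% interval -0.43 to 0.23). Without batch 3 AURKB was -0.27, with an unadjusted p of 0.0189 from limma.

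Among the checkpoint kinases, BUB1, which marks centromeres by phosphorylating histone H2A, was 0.55, -0.0085 and -0.14 in shNDRG1 cells, against 0.95, 0.0085 and 0.89 in shGFP control cells. The differences of -0.40, -0.02 and -1.03 were all below 0 but unequal, and the mean of -0.48 had a standard error of 0.21 (95% interval -1.03 to 0.07, adjusted p = 0.596 from limma). TTK, which starts checkpoint signalling at unattached kinetochores, was 0.69, -0.14 and -0.14 in shNDRG1 cells, against 0.91, -0.29 and 0.83 in shGFP control cells. Its differences were -0.22, 0.15 and -0.97, and the mean of -0.35 (standard error 0.23) rested mainly on batch 3. Without that batch the mean for TTK was -0.04 and for BUB1 -0.21.

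NEK2, the centrosome separation kinase, was 0.53, -0.02 and 0.02 in shNDRG1 cells, against 0.53, -0.25 and 0.74 in shGFP control cells. Here batches 1 and 2 gave differences of 0.0017 and 0.22, and batch 3 one of -0.71. MAD2L1, which binds and inhibits CDC20, was 0.43, 0.07 and -0.13 in shNDRG1 cells and 0.29, -0.13 and 0.35 in shGFP control cells, with differences of 0.13, 0.20 and -0.48. Without batch 3 the means of NEK2 and MAD2L1 lay above the control, at 0.11 and 0.17. BUB1B, the pseudokinase of the checkpoint complex, was 0.09, 0.07 and -0.07 in shNDRG1 cells and 0.28, -0.28 and 0.15 in shGFP control cells. Its differences of -0.18, 0.35 and -0.22 averaged -0.02 (standard error 0.13, 95% interval -0.38 to 0.34).

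**Figure D2:**
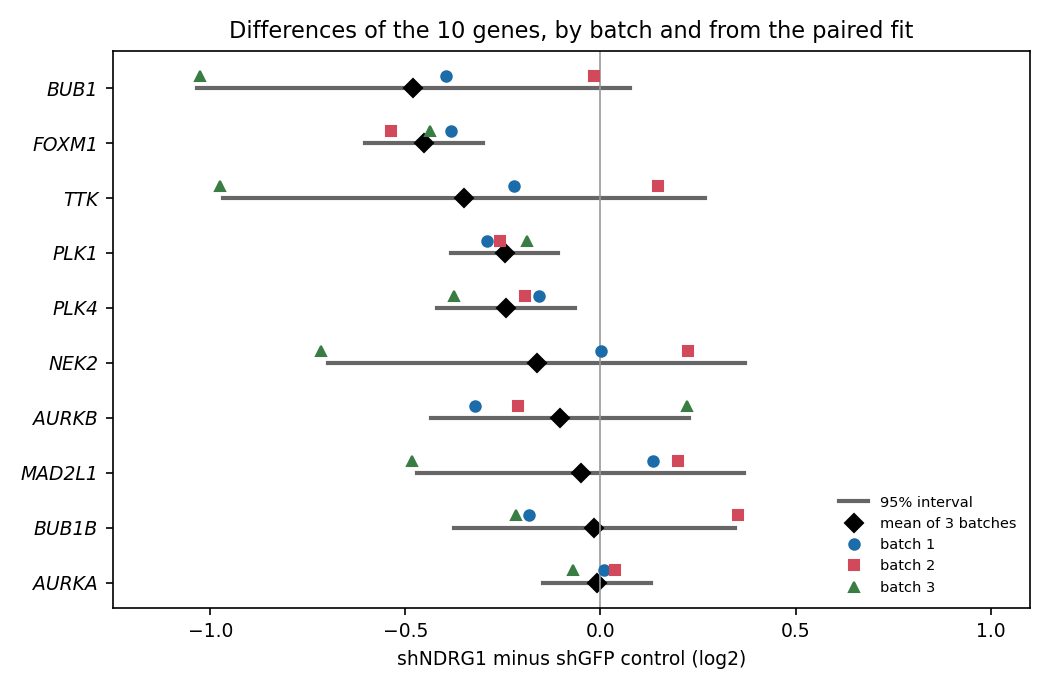
Differences of shNDRG1 minus shGFP control (x axis, log2) for each gene, with the 3 batches as coloured marks, their mean as a diamond and its 95% interval from the paired fit as a bar. The intervals of FOXM1, PLK1 and PLK4 end below 0, whereas those of BUB1, TTK and NEK2 are drawn wide by batch 3.

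In size the differences ran in the order BUB1, FOXM1, TTK, PLK1, PLK4, NEK2, AURKB, MAD2L1, BUB1B and AURKA. No neighbours in this order differed by more than the spread of their gap over the batches, for instance 0.03 ± 0.55 between BUB1 and FOXM1 (SD, n = 3). Differences varied little over the batches in PLK1 (SD 0.05), AURKA (SD 0.05), FOXM1 (SD 0.08) and PLK4 (SD 0.12), and over a range of SD 0.29 to 0.57 in the other 6. Of the 10 genes 4 were below the control in all 3 batches, FOXM1, PLK1, PLK4 and BUB1, against 12.5% of all genes, and 0 were above it in all 3, against 17.1%. The groups overlapped in every one of the 10 genes, so that 0 of 10 were fully apart, against 3.21% of all genes lower and 5.14% higher. A two-sided exact permutation p of single genes was taken over the 6 arrays without the pairing, so that the spread between batches counts in it. It accordingly ran from 0.2 to 1, where 0.1 is the smallest that 3 arrays against 3 allow.

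By batch, 7 of the 10 genes were below the control in batch 1, 5 in batch 2 and 9 in batch 3, against 49.4%, 46.3% and 44.8% of all genes. Their median difference was -0.20, 0.0096 and -0.41 in batches 1, 2 and 3, whereas that of all genes was 0.0014, 0.01 and 0.01. The lowest of the 3 differences came in batch 3 for 7 of the 10, against 33.8% of all genes. Without batch 3, 6 of the 10 had a mean below 0 and the median was -0.11.

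The control arrays alone separated the genes further. The shGFP control value of TTK in batch 2 minus that in batch 1 was -1.20, and those of PLK4, BUB1 and NEK2 were -1.01, -0.94 and -0.78. FOXM1, PLK1 and AURKB had the opposite sign, at 0.60, 0.53 and 0.49. The control was lowest in batch 2 for 7 of the 10 and highest there for 3, against 34.9% and 48.3% of all genes. Both groups were lowest in batch 2 for 4 and highest for 3, against 21.7% and 29.1%. In FOXM1 and PLK1 this control difference had the opposite sign to the difference between shNDRG1 and control cells in batch 3. In the rest of the 10 genes the signs were the same. The share of all genes with the same sign was not counted. Over all 14812 genes the 2 measures, which share no array, correlated with r = 0.616. This is given as a description, since genes on an array are not independent. The shNDRG1 array of batch 3 lay toward those of batch 2 on the first principal component, as given above, and its values of BUB1, TTK and NEK2 were close to those of the shNDRG1 array of batch 2. What this array shares with batch 2 was not tested.

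**Figure D3:**
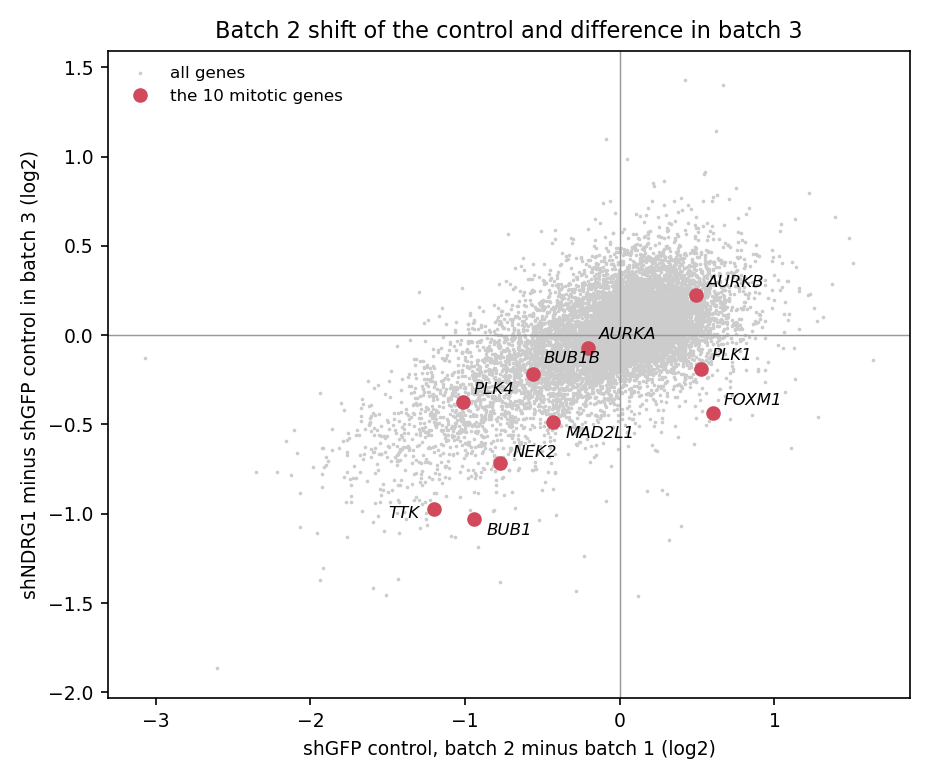
Change of the shGFP control between batches (x axis, batch 2 minus batch 1, log2) against the difference of shNDRG1 minus shGFP control in batch 3 (y axis, log2), with all 14812 genes in grey and the 10 mitotic genes in red. TTK, BUB1 and NEK2 lie low on both axes along the cloud of all genes, whereas FOXM1 and PLK1 lie at lower right, below the control in batch 3 although their control values were higher in batch 2.

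The 5 genes outside the 10 whose values over the 6 arrays were nearest to FOXM1, by root mean square distance after each gene was centred on its own mean, were AQP3, NPM3, EPHB4, IER3 and BCAM, at 0.05, 0.05, 0.06, 0.08 and 0.10 log2 units. The median distance of all genes was 0.34. AQP3, a water and glycerol channel gene, had differences of -0.32, -0.63 and -0.46 in the 3 batches, and EPHB4, an ephrin receptor gene, of -0.33, -0.62 and -0.48. Their likeness to the differences of FOXM1 follows from the way they were picked. PLK1 was the gene with rank 14 in nearness, at 0.12, and AURKB had rank 537, whereas PLK4 and TTK, both at 0.70, were among the farthest.

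Among genes activated by FOXM1, in a list written with earlier results of these data known, 22 of 32 were measured, with a median of -0.25. A difference below 0 was found in 21 of these, against 46.4% of all genes, which is a description and not a test. At an unadjusted p under 0.05, 6 were lower and 0 higher, against 3.74% and 5.7% of all genes. These 6 were KIF23, CCNB2, BIRC5, KIF20A, KIF14 and GTSE1, and 0 passed after adjustment. Without the pairing 3 were lower, against 1.57% of all genes. KIF23, a kinesin of the central spindle, had differences of -0.53, -0.38 and -0.68, a mean of -0.53 (standard error 0.07, adjusted p = 0.304 from limma). CCNB2, a mitotic cyclin, was -0.36 (standard error 0.07, adjusted p = 0.336 from limma). The median of the list was -0.21, -0.09 and -0.43 in batches 1, 2 and 3, so that it too was lowest in batch 3. CKS1B, which binds cyclin-dependent kinases, was the exception at 0.0033 (standard error 0.07).

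Partners of FOXM1 and subunits of the MuvB and B-MYB complex were measured for 12 of 13 genes, with 9 below 0 and a median of -0.09. At an unadjusted p under 0.05, 3 were lower, RBBP4, MYBL2 and CDK2, and 0 higher, and without the pairing 1 was lower. Over all genes 46.4% had a difference below 0. At that threshold 3.74% of all genes were lower and 5.7% higher, or 1.57% and 2.69% without the pairing. The same shares apply to the lists that follow. The histone-binding subunit RBBP4 had differences of -0.25, -0.43 and -0.41, a mean of -0.36 (standard error 0.06), and MYBL2, which encodes B-MYB, of -0.50, -0.50 and -0.12, a mean of -0.37 (standard error 0.10). TFDP1, an E2F dimer partner, was 0.02 (standard error 0.06) and the deubiquitinase gene USP21 was 0.09 (standard error 0.07).

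Of genes that bind or activate the kinases, 12 of 14 were measured, with a median of -0.11, 2 lower and 1 higher at an unadjusted p under 0.05, and 0 and 1 without the pairing. STIL, an activator of PLK4, was -0.35 (standard error 0.09), and BIRC5 (survivin), which forms the chromosomal passenger complex with AURKB, was -0.45 (standard error 0.12). BIRC5 had differences of -0.74, -0.41 and -0.19, smallest in batch 3. CEP85, a centrosomal protein that restrains NEK2 and binds STIL, had the opposite sign, with 0.65, 0.91 and 0.74 above the control in the 3 batches and a mean of 0.77 (standard error 0.07, adjusted p = 0.304 from limma). CEP250, a gene of the centrosomal linker whose protein is a NEK2 substrate, was 0.02 (standard error 0.06).

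In the rest of the spindle checkpoint, 10 of 17 genes were measured, with 7 below 0, a median of -0.10, and 1 lower and 0 higher at an unadjusted p under 0.05 (0 and 0 without the pairing). That gene was KNL1, the kinetochore scaffold of BUB1 and BUB1B, with -0.18, -0.31 and -1.03 in batches 1, 2 and 3 and a mean of -0.51 (standard error 0.19). TRIP13, an ATPase that remodels MAD2, was -0.14 (standard error 0.05), and its adaptor MAD2L1BP was 0.10 (standard error 0.05). MAD1L1, the kinetochore partner of MAD2, was 0.07 (standard error 0.07). The APC/C and its regulators, the target of the checkpoint, were measured for 17 of 19 genes and had a median of -0.02, with 0 lower and 0 higher at that threshold from limma. Its activator FZR1 was -0.09 (standard error 0.05) and its inhibitor FBXO5 -0.22 (standard error 0.14), while the subunits ANAPC11 and CDC23 were 0.21 (standard error 0.08) and 0.08 (standard error 0.05).

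Other mitotic kinases were measured for 9 of 11 genes, with a median of -0.09, and 2 were lower and 0 higher at an unadjusted p under 0.05 (0 and 0 without the pairing). These were MELK, a kinase of proliferating cells, at -0.32 (standard error 0.07), and PBK, a mitotic kinase also called TOPK, at -0.40 (standard error 0.14). CDK1, the main kinase of mitotic entry, was named after its values were seen, with differences of -0.15, -0.05 and -1.38. STK10 and VRK1 were 0.17 (standard error 0.11) and 0.05 (standard error 0.06). Among the other members of the PLK, Aurora and NEK families, most of which have no role confined to mitosis, 13 of 14 were measured, with a median of -0.0078. Of these 0 were lower and 1 higher at an unadjusted p under 0.05, NEK8, a kinase of the cilium, at 0.24 (standard error 0.06). NEK3 was -0.18 (standard error 0.08), PLK5 was -0.11 (standard error 0.07) and NEK11 was 0.09 (standard error 0.06).

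Of 18 phosphatases and CDC25 genes 6 were measured, with a median of 0.02 and none past an unadjusted p of 0.05. CDC25C and CDC25B, which activate CDK1, were -0.10 (standard error 0.06) and -0.10 (standard error 0.09), and CDC14A and ENSA were 0.04 (standard error 0.05) and 0.05 (standard error 0.07). General proliferation markers were measured for 7 of 7 genes, with 6 below 0 and a median of -0.11. MKI67, the Ki-67 antigen gene, was -0.29 (standard error 0.07) with -0.19, -0.26 and -0.43 in the 3 batches, and TYMS, the thymidylate synthase gene, was -0.29 (standard error 0.05). Both were lower at an unadjusted p under 0.05, and 1 gene was without the pairing. The replication helicase gene MCM6 was 0.0004 (standard error 0.07). How far the share of cycling cells moved with FOXM1, PLK1 and PLK4 was not tested.

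**Figure D4:**
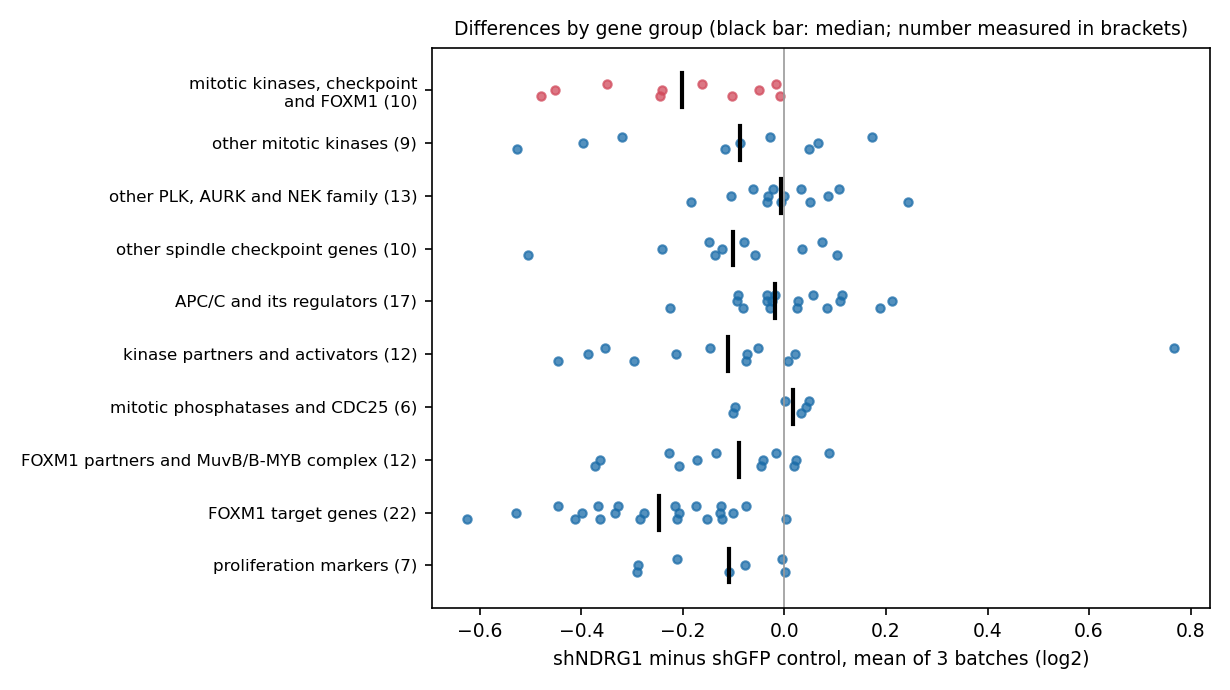
Mean differences over the 3 batches of shNDRG1 minus shGFP control (x axis, log2), 1 point per gene, for the 10 mitotic genes (red) and 9 related groups (blue), with group medians as black bars. The medians of the 10 genes and of FOXM1 target genes, -0.20 and -0.25, lie farthest below 0, and CEP85, at 0.77, is the far right point among kinase partners. The SKBR3 identity genes, with a median of -0.13, are not drawn.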

How the data were processed

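Expression was measured on 3 arrays of shNDRG1 and 3 of shGFP control SKBR3 cells. The authors hybridised biotin-labelled cDNA to Affymetrix Gene ST arrays, checked them in Affymetrix Expression Console, and summarised and quantile normalised the probes with PLIER in GeneSpring. They then transformed each probe to a baseline, which the methods give as the median of the controls. That median was 0, within 1e-05, for 0.338% of 44629 probes, and the median of all 6 arrays was 0 for 26.8%, so neither set of arrays accounts for the baseline of most probes and the samples behind it stay unknown. It cancels in differences between arrays. The deposited values were read as log2, and depth has no meaning for arrays, whose number limits the precision.

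A symbol was given for 15835 probes of 14812 genes, and probes of a gene were averaged. Each of the 10 genes had 1 probe. Groups were compared in limma 3.58.1 (R 4.3.3, lmFit and eBayes) with batch as a block, because the labels pair the arrays by batch, and p-values were adjusted by Benjamini-Hochberg over all genes at a threshold of 0.05. The deviations of paired arrays about the means of their groups correlated by 0.785, 0.833 and 0.163 in batches 1, 2 and 3. Intervals are for single genes and not adjusted. The fit was tested on simulated data. Promoter windows came from RefSeq; plotting used Python 3.11.15 and matplotlib 3.10.9. The alternatives were no block, the label day as block, other normalisations, variance models, weights, probe choices and thresholds, and leaving out arrays.

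The 10 genes and the 11 other gene lists were chosen with earlier results of these data known. Named are NDRG1, the 10 genes, up to 2 genes per list and direction by smallest p, and the 5 genes nearest to FOXM1. Other genes at an unadjusted p under 0.05, and CDK1, were named after their values were seen. BIRC5, CDC20, CDC25B, CDCA8, CIT, TOP2A, TPX2 and UBE2C stand in more than 1 list, whether measured or not. Genes of the lists that were not measured are not analysed here.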

Additional observations from a re-analysis of the deposited data

How the results depend on the processing

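No gene of the 10, and not NDRG1, passed an adjusted p of 0.05 under any of the 19 alternatives, and NDRG1 ranged from -1.11 to -0.87. FOXM1 ranged from -0.61 to -0.26, PLK1 from -0.41 to -0.08, BUB1 from -0.78 to -0.21 and TTK from -0.74 to -0.04, all below 0. The count of the 10 genes lower at an unadjusted p under 0.05 was 0 with no replicate block and 0 with the label day as block, 2 with unmoderated variances (without PLK4), 4 with array weights (with BUB1 added), and 0 to 5 without single arrays or batches. It was 5 without batch 2 (FOXM1, PLK1, PLK4, BUB1 and BUB1B), 3 without batch 3 (FOXM1, PLK1 and AURKB) and 2 without batch 1 (FOXM1 and PLK4). Of all genes 3.9%, 4.55% and 1.96% were lower in these 3 fits, and 1.57% with no replicate block. For the label day, unmoderated variances, array weights and single arrays left out, the share of all genes was not counted. The block changed no call after adjustment. The number of genes with a mean below 0 ranged from 6 to 10 without single arrays or batches, and the median of the 10 from -0.27 to -0.10. Leaving out a batch in the paired fit turned the sign of genes near 0, with ranges of -0.031 to 0.022 for AURKA, -0.267 to 0.0059 for AURKB, -0.200 to 0.084 for BUB1B, -0.357 to 0.113 for NEK2 and -0.175 to 0.167 for MAD2L1. With no replicate block and without 1 array, signs also turned. These were AURKB at 0.074 without the shNDRG1 array of batch 1, PLK4 at 0.053 and AURKA at 0.022 without that of batch 2, and AURKA at 0.018, BUB1B at 0.033 and MAD2L1 at 0.076 without that of batch 3. Without the shGFP control array of batch 1 they were AURKA at 0.040, BUB1B at 0.099 and MAD2L1 at 0.012, without that of batch 2 AURKB at 0.075, and without that of batch 3 BUB1B at 0.035, NEK2 at 0.037 and MAD2L1 at 0.041. Array weights gave MAD2L1 0.029. The cause was not tested.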
